A study of Mus musculus with 12 samples.

Results

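The 4 genes described here, Ly6a, Ly6c1, Ly6c2 and Ly6e, are members of the mouse Ly6 cluster and were chosen by symbol from a table of 31099 genes. They were picked with earlier results in view, because Ly6a and Ly6c1 were nearly lost in perivascular preadipocytes, so their values in that population are given as a description and are not tested. The RNA came from CD-1 mouse pups aged 3 days, with males and females mixed, and the labels name no genotype, transgene or treatment for any group. Inguinal white fat gave DPP4+ progenitors and ICAM1+ preadipocytes, and the aorta with its perivascular fat gave progenitors and preadipocytes. Each of the 4 groups had 3 libraries, and each library was made from cells that flow cytometry had sorted from a pool of mice, with equal numbers marking the same pool in every group. The sources used here do not give the surface markers of the perivascular sorts, or any marker beside DPP4 and ICAM1 in the inguinal ones. Whether SCA1 protein itself was part of a gate is therefore not known, and a difference in Ly6a between populations cannot be told apart from a difference in how they were sorted.

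Ly6 proteins are small, cysteine-rich proteins held at the outer face of the plasma membrane by a glycosylphosphatidylinositol (GPI) lipid anchor. Ly6a encodes SCA1 (stem cell antigen 1), an antigen widely used to sort haematopoietic stem cells and stromal progenitors, including those of fat, and one that interferons can induce. Ly6c1 and Ly6c2 encode the near-identical Ly6C antigens, which mark endothelial cells and inflammatory monocytes, and Ly6e encodes a broadly expressed, interferon-induced member of the family. The gene Ly6e is distinct from the Ly-6E allele of Ly6a.

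All 4 genes lie on chromosome 15 and are protein-coding in GENCODE release M21 (build mm10). Ly6e lies at chr15:74955051-74959905 on the plus strand. Ly6a (chr15:74994877-74998031), Ly6c1 (chr15:75044018-75048830) and Ly6c2 (chr15:75108158-75111970) follow on the minus strand. The exons of the 4 genes overlapped those of other annotated genes by 0 bases, but the genes resemble one another, which bears on how reads can be assigned. The first 120 bases of each coding sequence, from the same annotation, are shown 5′ to 3′ because they show this resemblance. Capitals mark bases that differ from Ly6c1 in the alignment to it.

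Ly6c1: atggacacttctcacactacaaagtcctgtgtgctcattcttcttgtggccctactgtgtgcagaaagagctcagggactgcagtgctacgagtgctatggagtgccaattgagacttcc
Ly6c2: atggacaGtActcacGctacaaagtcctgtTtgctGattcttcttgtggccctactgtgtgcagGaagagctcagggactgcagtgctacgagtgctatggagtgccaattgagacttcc
Ly6a: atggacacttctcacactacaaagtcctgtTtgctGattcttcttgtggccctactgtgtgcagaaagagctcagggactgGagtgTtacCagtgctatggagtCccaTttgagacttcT
Ly6e: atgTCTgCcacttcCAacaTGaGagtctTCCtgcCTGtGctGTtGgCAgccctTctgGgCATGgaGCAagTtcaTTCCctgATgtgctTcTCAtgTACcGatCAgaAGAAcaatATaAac

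In these stretches 6 bases of Ly6c2, 8 of Ly6a and 54 of Ly6e differed from Ly6c1. Over the whole coding sequence Ly6c1 and Ly6c2 were identical at 384 of 393 aligned bases (97.7%). Ly6a was 83.7% identical to Ly6c1 and 83.5% to Ly6c2, whereas Ly6e was 58.4% to 59.9% identical to the other three. Of the 50-base windows in each gene's transcripts, 32.5% in Ly6c1, 15.3% in Ly6a and 14% in Ly6c2 were also found in another member, and 0 of 4184 in Ly6e. Counting any gene, 246 of 1297 windows were shared in Ly6a (with Ly6i and I830127L07Rik beside the members), 578 of 1764 in Ly6c1 and 393 of 2733 in Ly6c2. Counts of Ly6a, Ly6c1 and Ly6c2 are therefore uncertain, because how reads matching several genes were counted is not given in the sources used here. Ly6e counts are free of this sharing at that window length.

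Library totals ran from 15614628 to 25674461 counts. In 11 of 12 libraries the most similar library belonged to the same group. The exception was perivascular progenitor library 1, which was nearest to perivascular preadipocyte library 1. That preadipocyte library had summed progenitor-identity markers of 1465 CPM (counts per library size, TMM-scaled), against 751 and 557 CPM in the other libraries of its group, and summed adipocyte markers of 729 CPM against 2006 and 2061 CPM. DPP4+ library 2 had summed haematopoietic markers of 304 CPM, against 157 and 155 CPM in its group. Results were recomputed without these 3 libraries. The labelled sorts could be checked in part: Dpp4 was 1510 ± 72.7 CPM (SD, n = 3) in DPP4+ cells and 32.0 ± 4.42 CPM in ICAM1+ cells, and Icam1 was 61.7 ± 15.8 and 497 ± 11.1 CPM. In perivascular progenitors and preadipocytes Dpp4 was 89.4 ± 7.57 and 5.08 ± 2.25 CPM, and Icam1 96.0 ± 6.03 and 39.5 ± 11.9 CPM. All 10 progenitor-identity markers were lower in perivascular than in DPP4+ progenitors (median log2 fold change -3.15), where 24.9% of genes were called. Dpp4, an antigen of the inguinal sort, is in this list, so its calls against DPP4+ cells depend on the gate. All 10 progenitor-identity markers also fell from progenitors to preadipocytes in perivascular and inguinal fat (medians -2.78 and -3.65), where 32.9% and 17.9% were called. Of 10 preadipocyte-identity markers, which include the sort antigen Icam1, 8 rose and 0 fell in the inguinal step (median 2.14). In the perivascular step 4 of them rose and 2 fell (median 0.16). Between preadipocytes 4 were higher and 5 lower in perivascular cells (median -0.65), where 44.9% of all genes were called. Stage matching between depots was not tested. Pdgfra, the receptor that marks stromal progenitors, was 493 ± 47.5, 623 ± 117, 590 ± 177 and 174 ± 61.2 CPM in DPP4+, ICAM1+, perivascular progenitor and perivascular preadipocyte cells.

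Ly6a, the SCA1 gene, was the most abundant member per kb of exon in every library but those of perivascular preadipocytes. In DPP4+ progenitors its level was 2073, 1694 and 2267 CPM in pools 1, 2 and 3. ICAM1+ preadipocytes had 897, 813 and 816 CPM. In the perivascular progenitors the values were 558, 397 and 360 CPM. The 4 groups thus kept one order without overlap, DPP4+ cells first and perivascular preadipocytes last. How large a share of all genes separates the groups in this way is not given here. Within the perivascular preadipocytes the level was only 4.33, 3.23 and 4.99 CPM. These last values rested on 88, 66 and 93 counts, so the transcript was still detected in all 3 libraries. Library 1 of that group, the one with the highest progenitor markers, was the middle of the 3.

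**Figure D1:**
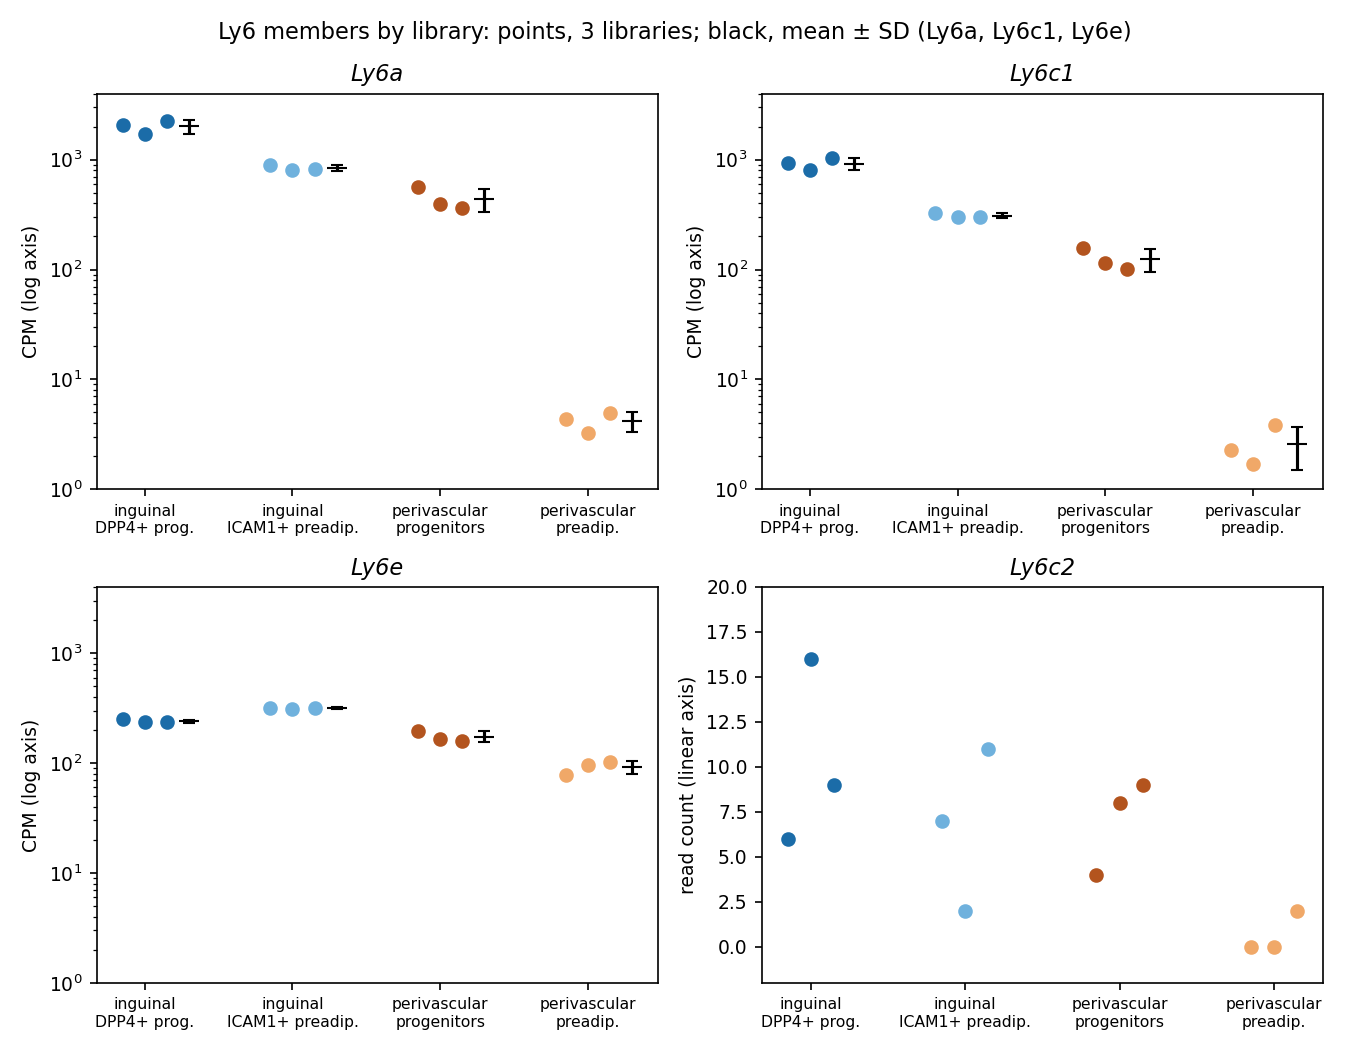
Level of each member in each library by group; Ly6a, Ly6c1 and Ly6e are TMM-scaled CPM on a log axis with mean ± SD of 3 libraries, and Ly6c2 is the read count on a linear axis. Ly6a and Ly6c1 run from 2267 and 1034 CPM in DPP4+ cells to under 5 CPM in perivascular preadipocytes, whereas Ly6e stays between 78.2 and 320 CPM and Ly6c2 has at most 16 counts.

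Between progenitors, Ly6a was lower in perivascular than in DPP4+ inguinal cells by 4.59-fold (438 ± 105 against 2011 ± 291 CPM). The log2 fold change was -2.2 (SE 0.21, edgeR quasi-likelihood test over 18855 genes, adjusted p = 9.88e-06), and the perivascular value was 26.9%, 23.4% and 15.9% of the inguinal one in pools 1, 2 and 3. Within inguinal fat, Ly6a was 2.39-fold lower in ICAM1+ preadipocytes (842 ± 47.6 CPM) than in DPP4+ progenitors, with a log2 fold change of -1.26 (SE 0.2, edgeR adjusted p = 0.00086). It was lower in 3 of 3 pools in both comparisons. In bulk samples, fewer cells that express a gene and less RNA per cell cannot be told apart, and this holds for every difference below.

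The comparisons that chose Ly6a are described without a test. Perivascular preadipocytes had 0.954% of the Ly6a level of perivascular progenitors (a log2 fold change of -6.71, or 105-fold), and 0.776%, 0.813% and 1.39% in the separate pools. Against ICAM1+ preadipocytes they had 0.497% (a log2 fold change of -7.65, or 201-fold). Among the 9137 tested genes with at least 10 CPM in perivascular progenitors, Ly6a had the lowest fold change of perivascular preadipocytes against progenitors and Ly6c1 the next (places 1 and 2). Against ICAM1+ preadipocytes, Ly6a and Ly6c1 took places 2 and 4 of 8906 such genes. The step from progenitor to preadipocyte was 43.9 times deeper for Ly6a in perivascular than in inguinal fat (a difference of log2 fold changes of -5.46). On the regularised log2 scale that the authors deposited, which shrinks low values, the perivascular step was -5.60.

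**Figure D2:**
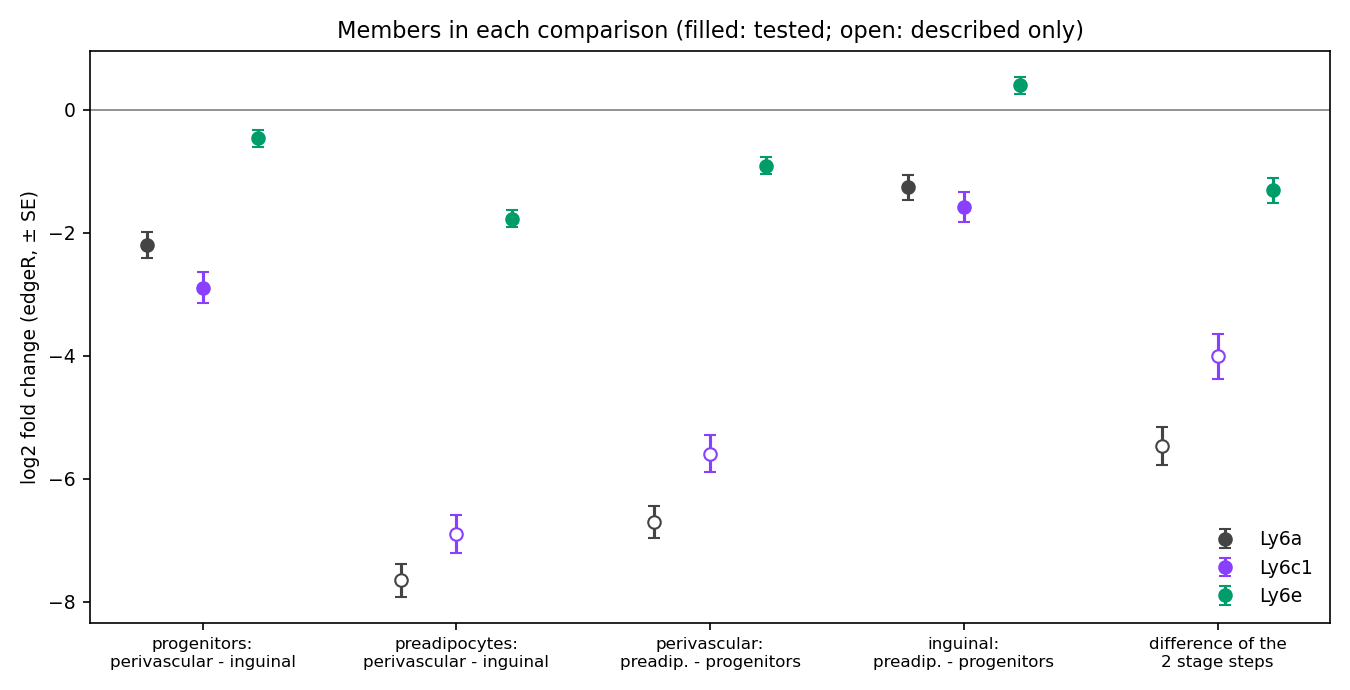
Log2 fold change with its SE for Ly6a, Ly6c1 and Ly6e in the 5 comparisons, with open points for values that were only described. Ly6a and Ly6c1 lie below 0 throughout and reach -7.65 and -6.9 between preadipocytes, whereas Ly6e lies between -1.77 and 0.4.

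Ly6c1 followed the same order of groups as Ly6a at a lower level. Its values were 924, 807 and 1034 CPM in DPP4+ progenitors. ICAM1+ preadipocytes had 326, 301 and 301 CPM. Perivascular progenitors had 158, 115 and 101 CPM, and perivascular preadipocytes 2.26, 1.71 and 3.81 CPM from 46, 35 and 71 counts. No range of a group overlapped that of another, and the ranking of the 12 libraries was identical for Ly6c1 and Ly6a. The share of all genes that separate the groups so is not given here. Reads shared by Ly6c1 and Ly6a can affect the match of their rankings, and their part in it was not tested. Ly6c1 was 7.39-fold lower in perivascular than in DPP4+ progenitors (a log2 fold change of -2.89, SE 0.25, edgeR adjusted p = 4.58e-06). It was 2.98-fold lower in ICAM1+ preadipocytes than in DPP4+ progenitors (a log2 fold change of -1.58, SE 0.24, edgeR adjusted p = 0.000509). As a description, perivascular preadipocytes had 2.08% of the Ly6c1 level of their progenitors (48.1-fold) and 0.837% of that of ICAM1+ preadipocytes (119-fold).

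The balance of the 2 transcripts differed between the populations. Per kb of exon, the ratio of Ly6a to Ly6c1 was 3.03 ± 0.102 (SD, n = 3) in DPP4+ progenitors, 3.79 ± 0.0357 in ICAM1+ preadipocytes and 4.89 ± 0.0609 in perivascular progenitors. It was 2.66, 2.62 and 1.82 in the perivascular preadipocytes. The ranges of the 4 groups did not overlap. Reads shared by the 2 genes can move this ratio, and their part in it was not tested. The ratio of Ly6a to Ly6e per kb was 26.4 ± 3.77 in DPP4+ cells, 8.39 ± 0.441 in ICAM1+ cells, 7.83 ± 0.934 in perivascular progenitors and 0.144 ± 0.0346 in perivascular preadipocytes. Ly6e was thus the leading member in the last group only, and the ranges of the middle groups overlapped.

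**Figure D3:**
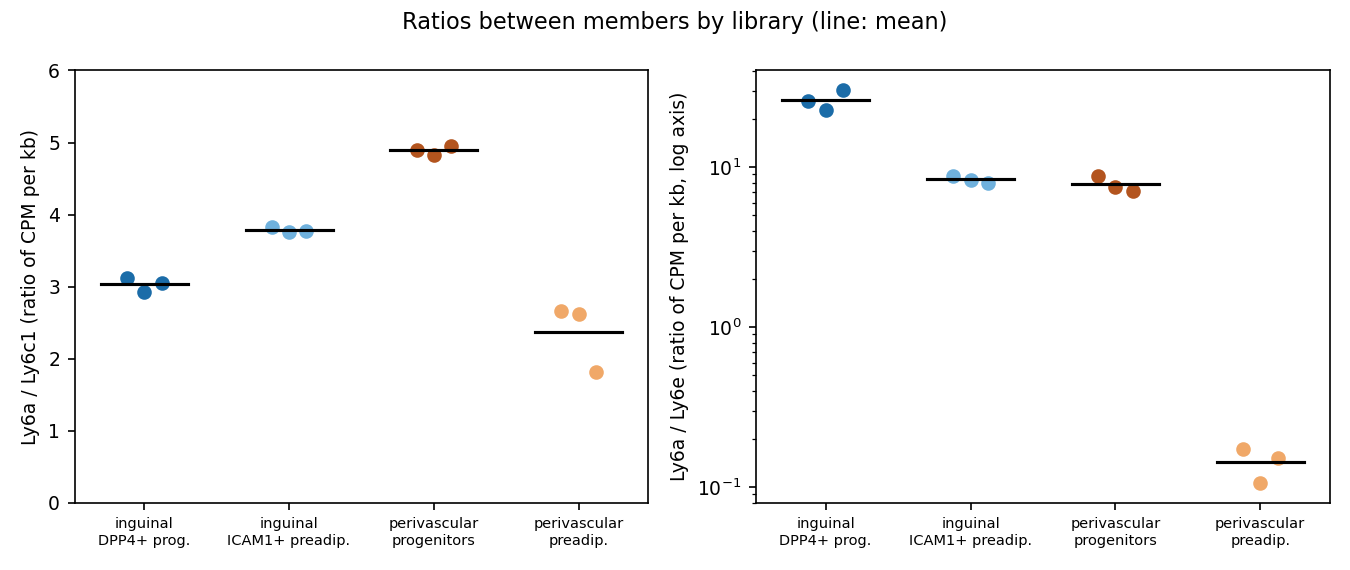
Ratio of Ly6a to Ly6c1 (left, linear axis) and of Ly6a to Ly6e (right, log axis) per kb of exon in each library, with the mean of 3 as a line. Ly6a exceeds Ly6c1 in all 12 libraries, and is below Ly6e only in perivascular preadipocytes, at 0.106 to 0.174.

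Other cell types were looked at through their markers, beginning with those known to carry Ly6a or Ly6c1. Of 16 endothelial markers, all were detected in each group, and their summed level was 833 to 1089 CPM in DPP4+ cells, 248 to 291 in ICAM1+ cells, 269 to 421 in perivascular progenitors and 115 to 188 in perivascular preadipocytes. Tek, a receptor of endothelial cells, made up most of the DPP4+ sum at 684 CPM, while the endothelial junction gene Cdh5 was 11.4, 8.43, 3.97 and 2.03 CPM in the same order of groups. In the perivascular step 0 of the 16 rose and 4 fell, where 32.9% of all genes were called (16.8% higher, 16.1% lower). Between progenitors 1 was higher and 5 lower in perivascular cells (median log2 fold change -0.24 against 0.05 for all genes). There 24.9% of all genes were called, 13% higher and 11.8% lower. Of 18 haematopoietic markers, none was at 0 in a whole group, and the sums were 155 to 304, 93.7 to 103, 71.1 to 123 and 45.9 to 67.3 CPM. Between progenitors 0 of these were higher and 11 lower in perivascular cells (median -1.99 against 0.05 for all genes). In the perivascular step 0 rose and 1 fell. The shares of all genes called are those just given. Ptprc, the pan-leukocyte antigen CD45, was 7.28, 2.49, 1.07 and 0.519 CPM.

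Markers of fat cells, fibroblasts and mesothelium moved as well. Of 10 adipocyte markers, 10 rose and 0 fell in the perivascular step (median 3.0), where 32.9% of all genes were called. Against ICAM1+ cells 9 were higher and 0 lower (median 4.75), where 44.9% were called. The sum of the 10 was 729 to 2061 CPM in perivascular preadipocytes and 61.2 to 205 CPM in the other libraries. Adipoq, the adipocyte hormone adiponectin, was 19.9 ± 15.1, 27.8 ± 5.92, 92.5 ± 2.95 and 763 ± 398 CPM in DPP4+, ICAM1+, perivascular progenitor and perivascular preadipocyte cells. Of 10 fibroblast markers 0 rose and 8 fell in the perivascular step (median -1.28), where 32.9% of all genes were called. Of 11 mesothelial markers 8 were higher and 0 lower in perivascular than in DPP4+ progenitors (median 3.71), where 24.9% of all genes were called. The sums were 155 to 284 against 38.8 to 41.7 CPM. In the perivascular step 0 rose and 6 fell, where 32.9% were called. The part of any of these cell types in the Ly6a and Ly6c1 values was not tested.

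Ly6c2 was close to absent although its coding sequence is nearly that of Ly6c1. It had 6, 16 and 9 counts in DPP4+ progenitors and 7, 2 and 11 in ICAM1+ preadipocytes. Perivascular progenitors had 4, 8 and 9 counts, and perivascular preadipocytes had 0, 0 and 2. The first 3 groups overlapped one another, and the fourth overlapped ICAM1+ cells at 2 counts. Per kb of exon, Ly6c2 made up 0.00669% to 0.0227% of the 4 members in DPP4+ libraries, and Ly6c1 23.6% to 24.7%. Ly6c2 was the one member of 4 that did not pass the filter on low counts, so it has no test among the 18855 genes. Counted over each group and scaled to library size, it was 11.3-fold higher in perivascular progenitors than in perivascular preadipocytes (exact 95% interval 2.76 to 99.4) and 9.65-fold higher in ICAM1+ than in perivascular preadipocytes (2.34 to 85.1). The ratio of DPP4+ to perivascular progenitors was 2.07 (1.15 to 3.79). That of DPP4+ to ICAM1+ cells was 2.43 (1.34 to 4.49). These intervals cover counting error only, and how many of these counts are reads shared with Ly6c1 was not tested. With no filter and 31099 genes tested, edgeR gave Ly6c2 adjusted p = 0.0418 for the perivascular step and 0.0359 between preadipocytes. It gave 0.448 between progenitors, 0.394 in the inguinal step and 0.351 for the interaction.

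Promoter sequence could be read for 2 of the 4 members, Ly6c1 and Ly6c2, from RefSeq on GRCm38.p6. The 250 bases before the first listed start of each are shown, 5′ to 3′ on the minus strand, since these genes share their coding sequence and not their level. Capitals mark a TATAAA match.

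Ly6c1: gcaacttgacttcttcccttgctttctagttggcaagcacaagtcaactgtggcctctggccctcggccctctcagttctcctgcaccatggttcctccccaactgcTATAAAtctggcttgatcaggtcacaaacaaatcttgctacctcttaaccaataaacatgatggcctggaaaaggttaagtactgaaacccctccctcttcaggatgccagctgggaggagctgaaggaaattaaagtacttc
Ly6c2: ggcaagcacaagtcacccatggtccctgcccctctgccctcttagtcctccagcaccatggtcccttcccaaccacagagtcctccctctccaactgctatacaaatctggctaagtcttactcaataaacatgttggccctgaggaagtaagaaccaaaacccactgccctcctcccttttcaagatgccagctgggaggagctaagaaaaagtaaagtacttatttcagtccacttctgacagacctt

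The Ly6c1 stretch is chr15:75048838-75049087 and the Ly6c2 stretch chr15:75111972-75112221. In the full windows of 300 bases, which go on 50 bases past the start, the genes were identical at 78.2% of 266 aligned bases, with 68 bases opposite gaps. The TATAAA match of Ly6c1 begins at -143 from the start, and Ly6c2 had 0 such matches on either strand. The same letters occurred in 13.6% of 32851 promoter windows. For 2 motifs bound by interferon-activated factors, the gamma-activated site TTCNNNGAA and the interferon-stimulated response element, there were 0 matches in the 4 windows of these genes, and 8.3% and 3.44% of all windows held one. The TATAAA match was the only motif match in these windows, and the window of the second listed Ly6c1 start held 0. These matches describe letters only.

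Ly6e, which shares no 50-base window with the other members, was at 250, 234 and 235 CPM in DPP4+ progenitors. ICAM1+ preadipocytes had 318, 308 and 320 CPM. Perivascular progenitors had 197, 165 and 160 CPM, and perivascular preadipocytes 78.2, 95.8 and 103 CPM. All 4 ranges were separate, and the order differed from that of Ly6a in that ICAM1+ cells were highest. Here too the share of all genes with separate ranges is not given. Ly6e was 1.88-fold lower in perivascular preadipocytes than in perivascular progenitors (a log2 fold change of -0.91, SE 0.14, edgeR adjusted p = 0.000824), and its level was 39.6%, 58% and 64.6% of that of the progenitors in the 3 pools. Between preadipocytes it was 3.41-fold lower in perivascular cells (a log2 fold change of -1.77, SE 0.14, edgeR adjusted p = 3.2e-06). In inguinal fat the preadipocyte value was 1.27, 1.32 and 1.36 times the progenitor value in the 3 pools, a log2 fold change of 0.4 that did not pass (SE 0.14, edgeR adjusted p = 0.072). It passed under 8 of 21 alternatives, among them DESeq2 (log2 fold change 0.37, adjusted p = 0.0371), and with a minimum count of 50 it lay just inside the threshold (adjusted p = 0.04996).

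**Figure D4:**
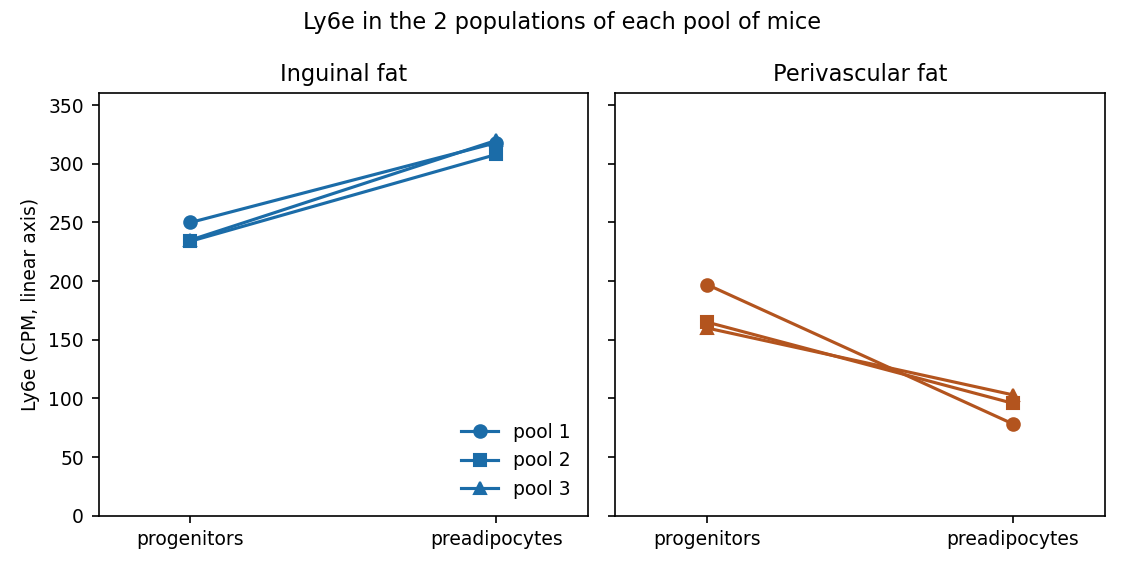
Ly6e level (CPM, linear axis from 0) in the progenitors and preadipocytes of each pool, in inguinal fat (left) and perivascular fat (right); each line joins 1 pool. The 3 inguinal lines go up, to 308 to 320 CPM, and the 3 perivascular lines go down, to 78.2 to 103 CPM.

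The stage step of Ly6e differed between the depots. The interaction of depot and stage was a log2 difference of -1.31 (SE 0.2, edgeR adjusted p = 0.00121), with the perivascular step below the inguinal one in 3 of 3 pools. Between progenitors Ly6e was 1.38-fold lower in perivascular cells (a log2 fold change of -0.46, SE 0.14, edgeR adjusted p = 0.0302). That last call depended on the processing: it was lost under 12 of 21 alternatives, including the model with the pool as a block (adjusted p = 0.058), and scaling by library totals gave -0.03 (adjusted p = 0.901).

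Set against the whole table, the 3 members tested between progenitors were all lower in perivascular cells, where 24.9% of genes were called, 13% higher and 11.8% lower. In the inguinal step 2 of the 3 were called, both lower, against 17.9% of genes called, 9.34% higher and 8.61% lower. Only Ly6e was tested in the remaining comparisons, and it was called lower in each. There the calls took 44.9% of genes between preadipocytes, 32.9% in the perivascular step and 15% for the interaction. Split by direction, 23.5% were higher and 21.4% lower between preadipocytes, 16.8% higher and 16.1% lower in the perivascular step, and 6.37% higher and 8.66% lower for the interaction. Without the 3 libraries that stood apart, the log2 fold changes between progenitors were -2.53 for Ly6a, -3.19 for Ly6c1 and -0.58 for Ly6e. Those of Ly6e were then -0.77 in the perivascular step and -1.13 for the interaction, and all 5 of these values were called (edgeR adjusted p at most 0.00155). The smaller fit called more genes in every comparison: 30.1% of 19396 between progenitors, 56.3% between preadipocytes, 51% in the perivascular step, 25.7% in the inguinal step and 40.1% for the interaction. Counts given below without those libraries are to be read against these shares.

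The rest of the Ly6 family was followed through a list of 41 further genes of the Ly6/uPAR family or with a Ly6 name. Of these, 37 were in the table and 17 passed the filter. Between preadipocytes 2 of the 17 were higher and 8 lower in perivascular cells, with a median log2 fold change of -0.8 against 0.04 for all tested genes. In the perivascular step 2 rose and 5 fell (median -0.36 against -0.05). Between progenitors 4 were higher and 6 lower (median 0.1 against 0.05), and in the inguinal step 4 rose and 3 fell (median 0.16 against 0.02). The interaction called 1 higher and 3 lower. All genes were called at 44.9%, 32.9%, 24.9%, 17.9% and 15% in these comparisons, in that order. Without the 3 libraries that stood apart, 18 genes were tested, and 5 were higher and 9 lower between preadipocytes, where 56.3% of all genes were called. The interaction then had 1 higher and 6 lower, where 40.1% of all genes were called.

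Members of the family moved in different directions. Lypd6, a modulator of Wnt signalling, was 38.6 ± 3.78 CPM in DPP4+ progenitors and 0.987 to 1.48 CPM on average in the other groups. Its log2 fold changes were -4.76 between progenitors and -5.24 in the inguinal step, and its interaction was 5.32 (edgeR adjusted p = 0.000333). Lypd1 was instead higher in perivascular cells, by 2.99 between progenitors and 3.14 between preadipocytes on the log2 scale (edgeR adjusted p = 0.00447 and 0.00135). Its levels were low, at 0.308 ± 0.0931 and 0.303 ± 0.0679 CPM in inguinal progenitors and preadipocytes and 2.46 ± 1.77 and 2.67 ± 1.39 CPM in perivascular ones. A pair of family members was chosen after their values were seen, for their abundance. Plaur, the urokinase receptor, was 80.6 ± 2.55, 47.2 ± 0.598, 22.2 ± 2.76 and 11.8 ± 5.54 CPM in DPP4+, ICAM1+, perivascular progenitor and perivascular preadipocyte cells, the same order as Ly6a. Cd59a, an inhibitor of the complement attack complex, rose in both steps (edgeR adjusted p = 0.000424 in inguinal and 0.0104 in perivascular fat), with 6.84 ± 0.116, 17.5 ± 0.713, 14.6 ± 1.74 and 24.8 ± 6.59 CPM.

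Neighbouring genes on chromosome 15 were examined because the members lie together. From Psca to Gpihbp1 (chr15:74714839-75599481) the annotation holds 50 genes, of which 32 are in the table. Apart from the members, 12 of the 28 others were tested and 11 reached 1 CPM in a group. Lynx1, which encodes a modulator of nicotinic receptors, was the most abundant of the 11, at 44.0 ± 3.04, 30.9 ± 1.59, 28.5 ± 7.86 and 5.41 ± 2.4 CPM in DPP4+, ICAM1+, perivascular progenitor and perivascular preadipocyte cells. It was lower in perivascular preadipocytes than in their progenitors (a log2 fold change of -2.4, edgeR adjusted p = 0.000207) and than in ICAM1+ cells (-2.51, adjusted p = 4.28e-05). The interaction was called too (-1.89, edgeR adjusted p = 0.00744).

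The genes next to Ly6a were low. Ly6i, a further Ly6 antigen gene, was 1.38 ± 0.0956, 1.46 ± 0.401, 0.415 ± 0.0708 and 0.0981 ± 0.0983 CPM in that order of groups. Its log2 fold change was -3.77 between preadipocytes and -1.98 in the perivascular step (edgeR adjusted p = 0.000265 and 0.0303). The long non-coding Gm28068, between Ly6a and Ly6c1, was 2.11 ± 0.325 CPM in ICAM1+ cells and 0.0506 ± 0.00267 CPM in perivascular preadipocytes (a log2 fold change of -5.2, edgeR adjusted p = 7.75e-05). Gm37042, an unclassified transcript, had -4.07 in that comparison and the pseudogene Gm8000 -2.18 (edgeR adjusted p = 9.71e-05 and 0.00185). Of these genes only Ly6i shared 50-base windows with Ly6a or Ly6c1, and it shared some with both. How far reads shared with these members enter the low counts was not tested.

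Farther out, the directions differed. Ly6d, a marker of early B cells, was 1.46 ± 0.563 and 7.15 ± 2.08 CPM in DPP4+ and ICAM1+ cells and at most 0.0344 CPM on average in perivascular groups (log2 fold changes of -5.09 and -8.24, edgeR adjusted p = 0.000288 and 5.68e-06). Ly6h, a brain-enriched member, was higher in both preadipocyte groups than in their progenitors, with log2 fold changes of 3.48 in inguinal and 1.33 in perivascular fat (edgeR adjusted p = 0.000325 and 0.0168). Gpihbp1, which carries lipoprotein lipase across capillary endothelium, was 18.7 ± 7.13 and 13.9 ± 1.12 CPM in inguinal and 2.61 ± 0.454 and 2.77 ± 2.28 CPM in perivascular progenitors and preadipocytes. It was lower in perivascular cells at both stages (log2 fold changes of -2.83 and -2.33, edgeR adjusted p = 0.0044 and 0.00745). Slurp1 (-3.91, edgeR adjusted p = 0.00293) and Lypd2 (-2.03, adjusted p = 0.00492) fell in the perivascular step, from 1.11 ± 0.0647 to 0.0668 ± 0.0742 CPM and from 1.46 ± 0.752 to 0.354 ± 0.0989 CPM. Ly6k, at most 1.19 CPM, had no call in any of the 5 comparisons.

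**Figure D5:**
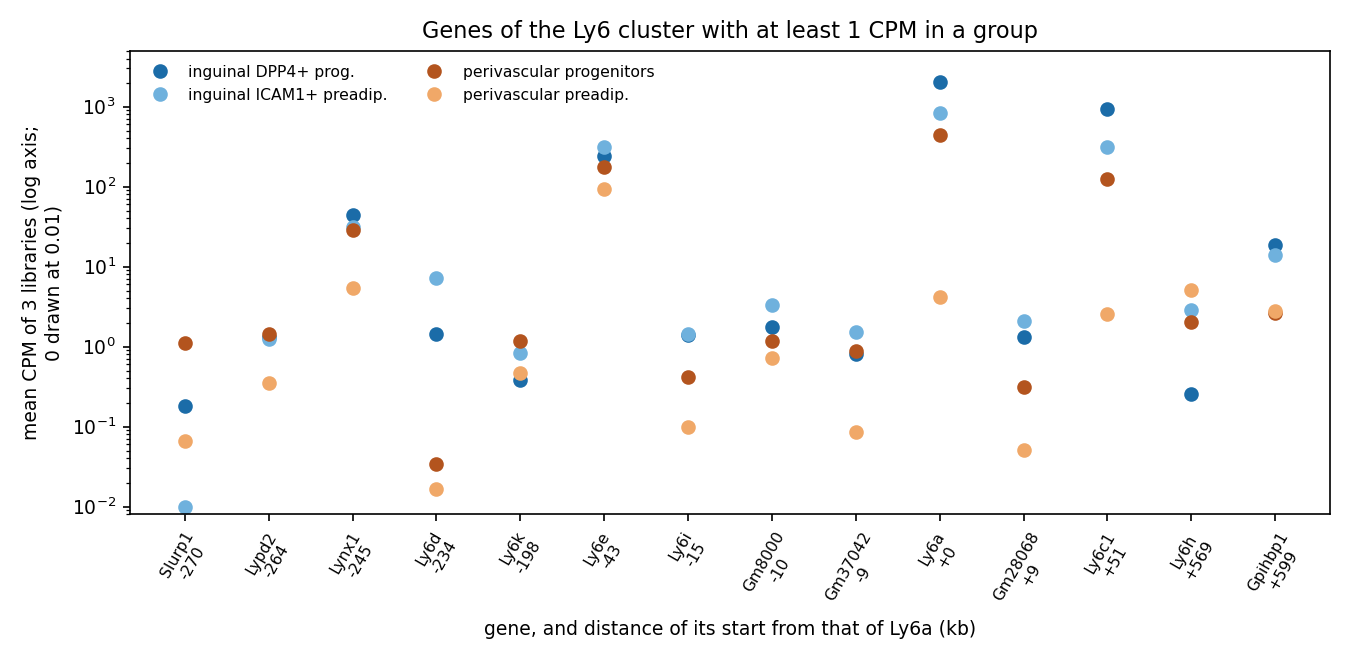
Mean level of 3 libraries in each group (CPM, log axis, with 0 drawn at 0.01) for the genes of the Ly6 cluster that reached 1 CPM, in chromosomal order with the distance of each start from that of Ly6a in kb. Ly6a, Ly6c1, Lynx1, Ly6i and Gm28068 are lowest in perivascular preadipocytes, whereas Ly6h is highest there, at 5.06 CPM.

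Genes of interferon signalling were counted because Ly6a and Ly6e are known interferon targets. Of 17 receptors, kinases and transcription factors, all tested, 1 was higher and 11 lower in perivascular than in ICAM1+ preadipocytes (median log2 fold change -0.83 against 0.04 for all genes). In the perivascular step 1 rose and 7 fell (median -0.46 against -0.05). Between progenitors 0 were higher and 5 lower (median -0.28), in the inguinal step 3 rose and 1 fell (median 0.14), and for the interaction 0 were higher and 5 lower (median -0.52). Across these comparisons 44.9%, 32.9%, 24.9%, 17.9% and 15% of all genes were called, in the order given. Without the 3 libraries that stood apart the perivascular step had 4 higher and 9 lower, the inguinal step 6 higher and 2 lower, and the interaction 1 higher and 9 lower, in a fit that called 51%, 25.7% and 40.1% of all genes.

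Irf9, the DNA-binding part of the interferon-stimulated gene factor, was 58.9 ± 2.61, 63.0 ± 5.49, 37.0 ± 3.92 and 19.7 ± 0.857 CPM in DPP4+, ICAM1+, perivascular progenitor and perivascular preadipocyte cells. Its interaction was -1.0 on the log2 scale (edgeR adjusted p = 0.00383). Its partner Stat2 was 32.4 ± 1.41, 46.8 ± 1.2, 33.6 ± 5.83 and 17.6 ± 4.49 CPM, highest in ICAM1+ cells and lowest in perivascular preadipocytes like Ly6e. Irf7, which drives interferon genes and is itself induced, was 2.49 ± 0.318 CPM in perivascular preadipocytes and 8.67 ± 0.712 CPM in ICAM1+ cells (a log2 fold change of -1.8, edgeR adjusted p = 3.05e-05). Irf2 (-1.49, edgeR adjusted p = 3.11e-05) and Stat3 (-1.45, adjusted p = 0.000106) were lower in that comparison as well. In the inguinal step the receptor gene Ifngr2 (1.29, edgeR adjusted p = 0.0153) and the factor gene Irf1 (0.91, adjusted p = 0.0127) rose. The kinase gene Jak1 was called between progenitors (-1.3, edgeR adjusted p = 0.000529) and in the inguinal step (-0.77, adjusted p = 0.0195).

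Other antigens used beside SCA1 to sort stromal cells were taken from a list of 20, all tested. Dpp4 and Icam1, the antigens of the inguinal sort, are in this list, so their calls in comparisons with inguinal cells depend on the gates. Between preadipocytes 1 was higher and 14 lower in perivascular cells (median log2 fold change -1.13 against 0.04). In the perivascular step 2 rose and 11 fell (median -1.06), and without the 3 libraries that stood apart 2 rose and 18 fell, where 51% of all genes were called. The inguinal step had 6 in each direction (median -0.08), between progenitors 3 were higher and 6 lower (median -0.04), and the difference between depots called 1 higher and 8 lower (median -0.71). The 1 higher was Dpp4 (1.42, edgeR adjusted p = 0.0207), and Icam1 was among the 8 lower (-4.29, adjusted p = 7.98e-06). With all 12 libraries, all genes were called at 44.9% between preadipocytes, 32.9% in the perivascular step and 17.9% in the inguinal step. The shares were 24.9% between progenitors and 15% for the difference between depots. Cd34, the antigen most often paired with SCA1, was 2567 ± 176, 635 ± 13.4, 1105 ± 40.5 and 214 ± 90.2 CPM in DPP4+, ICAM1+, perivascular progenitor and perivascular preadipocyte cells. Its step was -2.37 (SE 0.24) in perivascular and -2.02 (SE 0.24) in inguinal fat on the log2 scale, and the interaction did not pass (-0.35, SE 0.33, edgeR adjusted p = 0.49).

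Thy1 (CD90), a GPI-anchored antigen like SCA1, was 96.8 ± 13.5, 25.7 ± 4.1, 4.8 ± 1.19 and 1.36 ± 0.832 CPM, the order of groups of Ly6a. Its depot difference was -4.33 between progenitors and -4.22 between preadipocytes on the log2 scale (edgeR adjusted p = 1.34e-06 and 2.92e-06). Cd55, a GPI-anchored complement inhibitor and progenitor marker, was 994 ± 51.1, 104 ± 11.9, 90.7 ± 4.35 and 9.35 ± 0.737 CPM, and its steps were -3.28 and -3.26. The hyaluronan receptor gene Cd44 was lower in perivascular than in ICAM1+ preadipocytes (a log2 fold change of -2.96, edgeR adjusted p = 4.02e-06). Pdgfra fell in the perivascular step (-1.76, edgeR adjusted p = 0.000927) and not detectably in the inguinal one (0.34, SE 0.27, adjusted p = 0.46), with an interaction of -2.1 (adjusted p = 0.00397). Some antigens were higher in perivascular cells. F3, the coagulation factor receptor CD142, was 53.4 ± 3.61, 120 ± 4.39, 444 ± 69.1 and 290 ± 161 CPM, with log2 fold changes of 3.06 between progenitors and 1.27 between preadipocytes (edgeR adjusted p = 1.53e-05 and 0.00374). The adhesion genes Ncam1 (2.36, edgeR adjusted p = 0.000218) and Vcam1 (1.49, adjusted p = 0.00168) were higher between progenitors too, and their interactions were -3.07 and -2.47 (adjusted p = 0.00102 and 0.00153). Between preadipocytes Vcam1 was instead lower in perivascular cells (-0.97, edgeR adjusted p = 0.012), and Ncam1 did not pass (-0.71, adjusted p = 0.0797). Nt5e (CD73) fell in the inguinal step (-2.63, edgeR adjusted p = 1.85e-05) and the perivascular one (-1.72, adjusted p = 0.00062). Dpp4 and Icam1 set the inguinal sort, so their inguinal values, and their calls in comparisons that use inguinal cells, are no finding.

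The enzymes that build and attach the GPI anchor were called less often than all genes in every comparison. Between preadipocytes and in the perivascular step the calls went in both directions. Of 29 such genes, all tested, 5 were higher and 3 lower between preadipocytes, where 44.9% of all genes were called. In the perivascular step 3 rose and 4 fell, where 32.9% were called. The medians were 0.07 and -0.04, against 0.04 and -0.05 for all genes. Between progenitors 0 were higher and 2 lower (median -0.13), where 24.9% of all genes were called. In the inguinal step 0 rose and 4 fell (median -0.26), where 17.9% were called. The interaction called 2 higher and 0 lower (median 0.26), where 15% were called. Pigl, a deacetylase of an early step, was higher in perivascular preadipocytes than in ICAM1+ cells by 1.83 (11.4 ± 2.08 against 3.19 ± 0.14 CPM, edgeR adjusted p = 0.000184). Pgap1, which remodels the finished anchor, was lower there (a log2 fold change of -1.0, edgeR adjusted p = 0.00401). Without the 3 libraries that stood apart the calls in the perivascular step were 5 higher and 8 lower, where 51% of all genes were called. Pigz, a mannosyltransferase of anchor synthesis, fell in the inguinal step to 2.14 ± 0.897 CPM (a log2 fold change of -2.47, edgeR adjusted p = 0.00147).

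The genes most like each member were taken by Pearson correlation of log2 CPM over the 12 libraries among 9896 tested and named genes of at least 10 CPM in a group. The libraries share 4 groups, so these values mostly describe the order of the group means, and they carry no test. Nearest to Ly6a were Ly6c1 (r = 0.994), Clec3b (0.983), Ifi211 (0.98), Ppp1r21 (0.976) and Adamts16 (0.973). Nearest to Ly6c1 were Ly6a, Ifi211 (0.99), Clec3b (0.989), Tmeff2 (0.983) and Ifi204 (0.983). Clec3b, which encodes the secreted protein tetranectin, was 990 ± 120, 572 ± 64.7, 396 ± 84.3 and 59.0 ± 20.8 CPM in DPP4+, ICAM1+, perivascular progenitor and perivascular preadipocyte cells. Ly6e had other neighbours: Ptn (0.985), Lbp (0.984), Gsn (0.978), Apod (0.976) and Scg3 (0.972). Ptn, a secreted growth factor, was 443 ± 49.1, 796 ± 69.6, 147 ± 10.3 and 48.2 ± 15 CPM. Between members, r was 0.905 for Ly6a with Ly6e and 0.907 for Ly6c1 with Ly6e (Spearman rho 0.79 for both). Without the 3 libraries that stood apart Ly6c1 was only the fourth nearest gene to Ly6a, at an r of 0.994. Beyond that the neighbours were not stable: by Spearman correlation 1, 1 and 2 of the 5 nearest genes of Ly6a, Ly6c1 and Ly6e were still among the 5 nearest, and without the 3 libraries 1, 2 and 1. Ppp1r21 took place 570 for Ly6a by Spearman correlation.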

How the data were processed

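RNA was measured in 12 libraries in 4 groups of 3. Per the labels' protocols, an enzyme digest of the tissue was sorted by flow cytometry, and poly(A) RNA was amplified with SMART-Seq v4 reagents for very small inputs. The submitters' processing notes name STAR 2.5.2a, DESeq2 1.26.0 and mm10. The sources used here name neither the counting tool nor its annotation, and do not say whether strand was used. The authors deposited raw read counts per gene, a signal (counts divided by 1 size factor per library) and regularised log2 values. The raw counts were tested, and the other tables served as checks. Columns were matched to samples by name, and no 2 libraries were identical.

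Counts were analysed with edgeR 4.0.16 under R 4.3.3: filterByExpr with a minimum count of 10 (18855 genes), TMM scaling, 1 quasi-likelihood model of 12 libraries, two-sided tests and Benjamini-Hochberg adjustment over all genes tested, calling genes whose adjusted p was under 0.05. The SE is the log2 fold change divided by the square root of F. CPM are TMM-scaled, and CPM per kb use merged GENCODE exons. TMM factors were 0.744 to 0.814 in DPP4+ libraries, which raises their CPM. With library totals as the scale instead, the median gene moves to a log2 fold change of 0.48 between progenitors and 0.4 in the inguinal step. Alternatives were limma-voom 3.58.1, DESeq2 1.42.0, other filters and scales, a block, the compared groups alone, and libraries left out. The calculations were tested on simulated data.

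The labels tie equal replicate numbers to the same pools of mice, so the numbers pair the samples. Over 18 same-numbered pairs the correlation of deviations from the group means ran from -0.213 to 0.153, with 5 pairs over 0.1. The main model had no term for the pool. Its p-values measure the spread between pools within groups and leave the pairing unused, and only the block alternative used it.

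The members and lists were chosen with earlier results of these data known. Besides the members, most genes named were drawn from these candidates, not all of which are named: the 5 nearest by correlation, the called genes that changed most in each list described (at most 4 a comparison), cluster genes of at least 1 CPM, and Dpp4, Icam1 and Pdgfra. Plaur, Cd59a and the single cell type markers given fall outside this rule and were chosen after their values were seen. A gene of the interferon signalling list that this rule would name is not reported here.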

Additional observations from a re-analysis of the deposited data

Results flagged for a closer look

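Ly6e differed between the depots in its step from progenitor to preadipocyte. The log2 fold change was -0.91 in perivascular fat and 0.4 in inguinal fat, and the difference between them, tested as an interaction of depot and stage, was -1.31 (edgeR adjusted p = 0.00121). The perivascular value was lower in 3 of 3 pools and the inguinal value higher in 3 of 3, but the inguinal change was not called (edgeR adjusted p = 0.072).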

How the results depend on the processing

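Ly6a and Ly6c1 kept their direction and, where tested, their call under every alternative run: Ly6a ran from -2.53 to -1.76 between progenitors and from -1.39 to -0.87 in the inguinal step, and Ly6c1 from -3.19 to -2.45 and from -1.68 to -1.19. Ly6e kept its calls between preadipocytes (-1.91 to -1.54), in the perivascular step (-1.02 to -0.74) and for the interaction (-1.51 to -1.13). Its call between progenitors was lost under library totals (-0.03, adjusted p = 0.901), under the replicate block (-0.46, adjusted p = 0.058), with no filter (-0.47, adjusted p = 0.0577) and with 9 of 12 single libraries left out (-0.57 to -0.4 over the 12, adjusted p 0.00235 to 0.118), and the cause was not tested. The block changed no other call of a member. The Ly6e difference in the inguinal step was called with library totals (0.77), DESeq2 (0.37), limma-voom (0.38), a minimum count of 50 (0.4, adjusted p = 0.04996), the compared groups alone (0.38) and without the 3 libraries that stood apart (0.36), and single libraries left out gave 0.38 to 0.43, called without perivascular preadipocyte library 1 or 3. Library totals gave 7548 calls between progenitors (83.7% higher) against 4687, and 5276 in the inguinal step (82.6% higher) against 3384. Limma-voom gave 10914 calls in the perivascular step, 6052 in the inguinal step and 8384 for the interaction. The compared groups alone gave 2825 in the perivascular and 5757 in the inguinal step, and leaving out the 3 libraries gave 9893 in the perivascular step and 7783 for the interaction. With 1 library left out, calls ran from 3604 to 5761 between progenitors, 6615 to 9574 between preadipocytes, 3916 to 8000 in the perivascular step, 2276 to 4292 in the inguinal step and 1666 to 5231 for the interaction, the last without ICAM1+ library 2 and perivascular preadipocyte library 1. The list counts without the 3 libraries were chosen after seeing the data. At 0 to 16 counts a library, depth limits what can be said of Ly6c2.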
